A study of Mus musculus with 2 samples.

Results

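The ligand genes, both receptor genes and a pair of pericyte genes make up the platelet-derived growth factor (PDGF) set described here: Pdgfa, Pdgfb, Pdgfc, Pdgfd, Pdgfra, Pdgfrb, Rgs5 and Cspg4. They were chosen by name and matched to their Ensembl identifiers through GENCODE, and they are 8 of the 43346 mouse genes in the tables. Total RNA was measured in kidneys of mouse embryos at embryonic day 15.5, in the only group, embryonic kidney, with 2 replicate libraries. Both came from healthy B6NCrl embryos of mixed sex with no treatment or altered allele named in the labels. The replicate 1 library pooled kidneys of 78 embryos and the replicate 2 library those of 62, so values of single animals are averaged. The replicates are separate pools, each measured in 1 library. With 1 group and 2 libraries there is nothing to test between conditions, and no p is given, since the smallest exact p that 2 paired libraries allow is 0.5. Levels are in TPM, a relative abundance adjusted for transcript length and scaled to a fixed sum per library, given per library or as mean ± SD (n = 2).

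PDGFs are secreted as dimers that bind a pair of related receptor tyrosine kinases on neighbouring cells. PDGF-A and PDGF-C act mainly on the alpha receptor, while PDGF-B and PDGF-D act mainly on the beta receptor, which PDGF-B from endothelium uses to recruit pericytes. In the developing kidney the beta receptor and its ligand PDGF-B are known to be needed for mesangial cells, the pericyte-like cells that hold glomerular capillaries together. PDGF-C and PDGF-D are made with an extra CUB domain that proteases must remove before the ligand can bind. Rgs5 encodes a regulator of G protein signalling, and Cspg4 encodes the NG2 proteoglycan. Both serve as pericyte markers, and Cspg4 and Pdgfra also mark oligodendrocyte precursors in the brain.

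The ligand sequences are shown first because the transcripts of 3 ligand genes differ by short stretches that change the protein. All are spliced transcript sequence of GENCODE M21 on mouse build mm10, read 5′ to 3′ on the gene's own strand. Capitals mark the stretch that differs and lower case marks the 30 shared bases on either side. For Pdgfa only the shared bases before the difference are shown, and the capitals run through the stop codon.
Pdgfc-202, with an extra exon: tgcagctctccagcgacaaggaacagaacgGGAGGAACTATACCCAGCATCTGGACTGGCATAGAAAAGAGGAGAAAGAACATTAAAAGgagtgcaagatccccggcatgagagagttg
Pdgfc-201, without it: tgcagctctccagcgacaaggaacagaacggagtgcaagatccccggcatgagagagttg
Pdgfa-201, with exon 6: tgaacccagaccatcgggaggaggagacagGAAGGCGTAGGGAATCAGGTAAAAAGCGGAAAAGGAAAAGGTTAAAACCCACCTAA
Pdgfa-202, without exon 6: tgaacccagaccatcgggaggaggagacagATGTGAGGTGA
Pdgfd-202, with an extra coding stretch: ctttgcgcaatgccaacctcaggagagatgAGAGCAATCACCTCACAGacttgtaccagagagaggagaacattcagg
Pdgfd-201, without it: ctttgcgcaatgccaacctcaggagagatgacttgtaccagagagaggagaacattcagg
The extra Pdgfc exon is 59 nt long (chr3:81131018-81131076, plus strand). That length is not a multiple of 3, and the exon carries an in-frame TAA at its bases 54 to 56, so the reading frame closes after 57 codons instead of 345. Exon 6 of Pdgfa is 69 nt long (chr5:138978622-138978690, minus strand) and gives a reading frame of 211 codons instead of 196. Its end is known as a basic stretch that holds the long form at the cell surface and in the matrix. The Pdgfd stretch is 18 nt long (chr9:6288472-6288489, plus strand) and adds 6 codons.

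**Figure D1:**
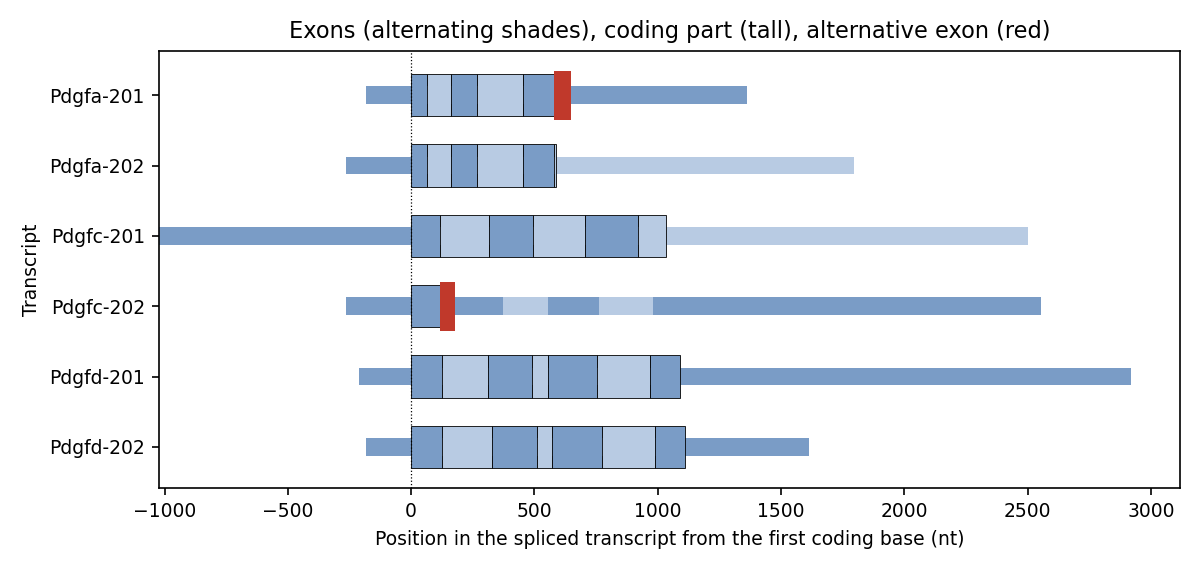
Exons of the compared transcripts of Pdgfa, Pdgfc and Pdgfd in GENCODE M21, drawn to scale in nucleotides along the spliced transcript from the first coding base. Tall blocks are coding, thin blocks are untranslated or follow the first stop, shades alternate between exons, and the 59-nt exon of Pdgfc-202 and the 69-nt exon 6 of Pdgfa-201 are red; the paired transcripts also have different ends.

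All 8 genes were detected, meaning at least 1 TPM in both libraries. That rule was met by 34.9% of all mouse genes and by 62.3% of the protein-coding ones, 13387 in number. By mean level the order was Pdgfrb, Pdgfa, Pdgfra, Pdgfc, Rgs5, Cspg4, Pdgfd and Pdgfb. The set thus ran from 43.8 ± 3.32 TPM for Pdgfrb to 3.29 ± 0.537 TPM for Pdgfb. In bulk tissue a low level cannot be split into few cells of a type and little RNA per cell, and this holds for each gene of the set.

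**Figure D2:**
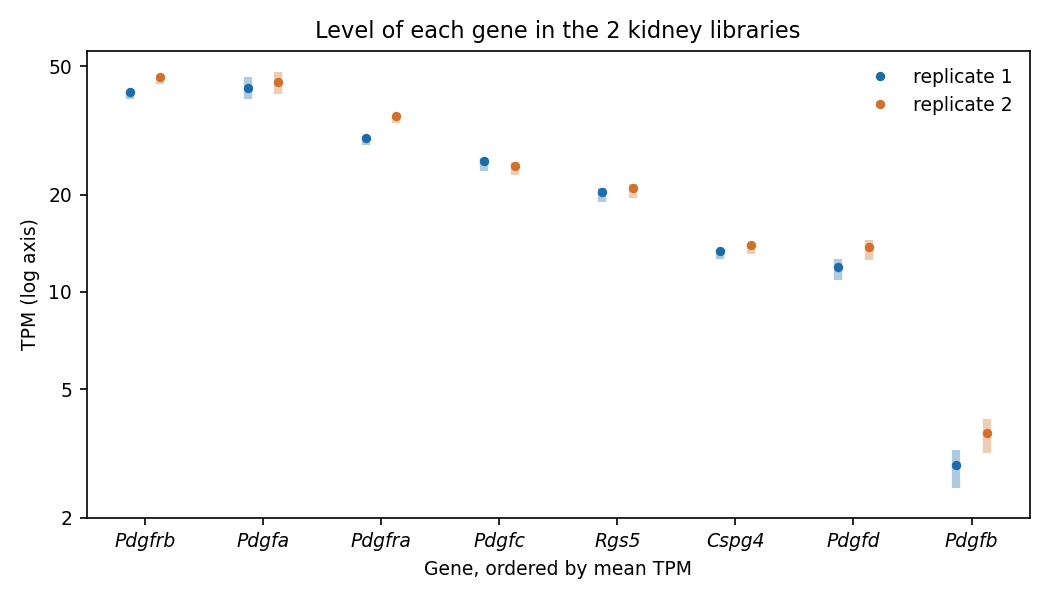
TPM of each gene (log axis) in the replicate 1 library (blue) and the replicate 2 library (orange), with the quantifier's interval as a pale bar. Pdgfrb and Pdgfa lie above 41 TPM in both libraries, Pdgfb lies below 4 TPM in both, and the other 5 genes lie between.

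Among the ligands, Pdgfa (ENSMUSG00000025856.11, chr5:138976014-138997370, minus strand) measured 42.81 TPM in replicate 1 and 44.72 TPM in replicate 2. It was the highest ligand in each library and made up 51.6 ± 0.0403% of the summed ligand TPM. Pdgfc (ENSMUSG00000028019.5, chr3:81036416-81214040, plus strand) followed with 25.37 and 24.53 TPM, or 29.4 ± 1.58% of the ligand TPM. Pdgfd (ENSMUSG00000032006.10, chr9:6168584-6378850, plus strand) measured 11.97 and 13.75 TPM. Pdgfb (ENSMUSG00000000489.6, chr15:79995874-80014977, minus strand), the endothelial ligand of the beta receptor, was lowest with 2.91 and 3.67 TPM. It had the fewest expected counts in the set, 273 in replicate 2, and 12.6% of the detected protein-coding genes were lower. The ligands that act mainly on the alpha receptor, Pdgfa and Pdgfc, thus stood above those that act mainly on the beta receptor in both libraries. Over protein-coding transcripts alone this held for Pdgfa, while Pdgfc measured 5.16 and 4.44 TPM and lay below Pdgfd. The share of Pdgfc in the ligand TPM was then 8.09 ± 1.13%, and that of Pdgfa 64.8 ± 0.958%.

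Of the receptors, Pdgfrb (ENSMUSG00000024620.7, chr18:61045150-61085061, plus strand), the receptor of mural and mesangial cells, measured 41.48 TPM in replicate 1 and 46.17 TPM in replicate 2. Pdgfra (ENSMUSG00000029231.11, chr5:75152292-75198215, plus strand), a receptor known in stromal mesenchyme, measured 30 and 35.03 TPM. Pdgfrb was higher in each library and made up 57.4 ± 0.828% of the summed receptor TPM. The receptors together reached 76.3 ± 6.87 TPM and the ligands 84.9 ± 2.55 TPM, an order that turned over protein-coding transcripts alone, where the ligands reached 59.5 ± 2.04 TPM. Both receptors were well covered, with 4743 to 6463 expected counts per library.

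The pericyte genes stood below both receptors. Rgs5 (ENSMUSG00000026678.6, chr1:169655501-169695813, plus strand) measured 20.35 and 20.91 TPM, near the middle of the detected protein-coding genes, of which 51.6% were lower. Cspg4 (ENSMUSG00000032911.5, chr9:56865033-56899870, plus strand) measured 13.42 and 13.94 TPM, with 40.4% of those genes lower. Its 2614 and 2923 expected counts exceeded those of Rgs5, at 1953 and 2146, over a transcript of 8050 nt against 4096 nt for the leading Rgs5 transcript. Levels of different genes are therefore compared per length here.

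Whether 2 genes differed beyond replicate error was judged on log2(TPM + 1) within each library. A pair was called separated where 1 gene was higher in each library by more than a limit. Detected genes at the level of the lower gene set that limit, as the 95th percentile of their unsigned log2 ratios between the pools. It was 0.79 log2 units for genes at 3 to 10 TPM, 0.37 at 10 to 30 TPM and 0.27 at 30 to 100 TPM. Of the 7 pairs of neighbours in the order, 3 were separated: Pdgfa above Pdgfra by 0.42 ± 0.11, Rgs5 above Cspg4 by 0.56 ± 0.0097, and Pdgfd above Pdgfb by 1.69 ± 0.05 log2 units. Pdgfrb and Pdgfa were not separated, since Pdgfa was higher in replicate 1 and Pdgfrb in replicate 2. Pdgfc against Rgs5 (0.26) and Cspg4 against Pdgfd (0.086) also lay within the limit. Pdgfra exceeded Pdgfc by 0.23 in replicate 1 and by 0.50 in replicate 2, so that pair passed the limit in replicate 2 alone. With 1 limit taken over all detected genes, or with the 99th percentile, Pdgfd and Pdgfb were the 1 pair of neighbours separated. With FPKM in place of TPM, Rgs5 and Cspg4 (0.54) were not.

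Of 12 pairs chosen by role, 11 were separated. Pdgfa/Pdgfra, Pdgfc/Pdgfra, Pdgfb/Pdgfd and Rgs5/Cspg4 are also neighbours in the order and were counted above. The share of separated pairs among all detected genes was not computed, so neither count sets these genes apart from others. The low endothelial ligand Pdgfb lay 3.39 ± 0.0744 log2 units below its receptor Pdgfrb, and Pdgfd lay 1.69 ± 0.0244 below it. Pdgfa stood 14.7-fold above Pdgfb in replicate 1 and 12.2-fold above it in replicate 2. Pdgfra lay 0.42 ± 0.0466 below Pdgfrb, with TPM ratios of 0.723 and 0.759, and was not separated with 1 limit over all genes or the 99th percentile. Pdgfc exceeded Pdgfd, the other CUB-domain ligand, by 0.91 ± 0.164, and Pdgfa exceeded Pdgfc by 0.79 ± 0.0766; neither pair was separated with the 99th percentile. Rgs5 and Cspg4 lay below Pdgfrb by 1.05 ± 0.0804 and 1.61 ± 0.0707. The pair that was not separated was Pdgfc against Pdgfra, the ligand lying lower by 0.37 ± 0.186, and it was separated (-0.50) without replicate 1.

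**Figure D3:**
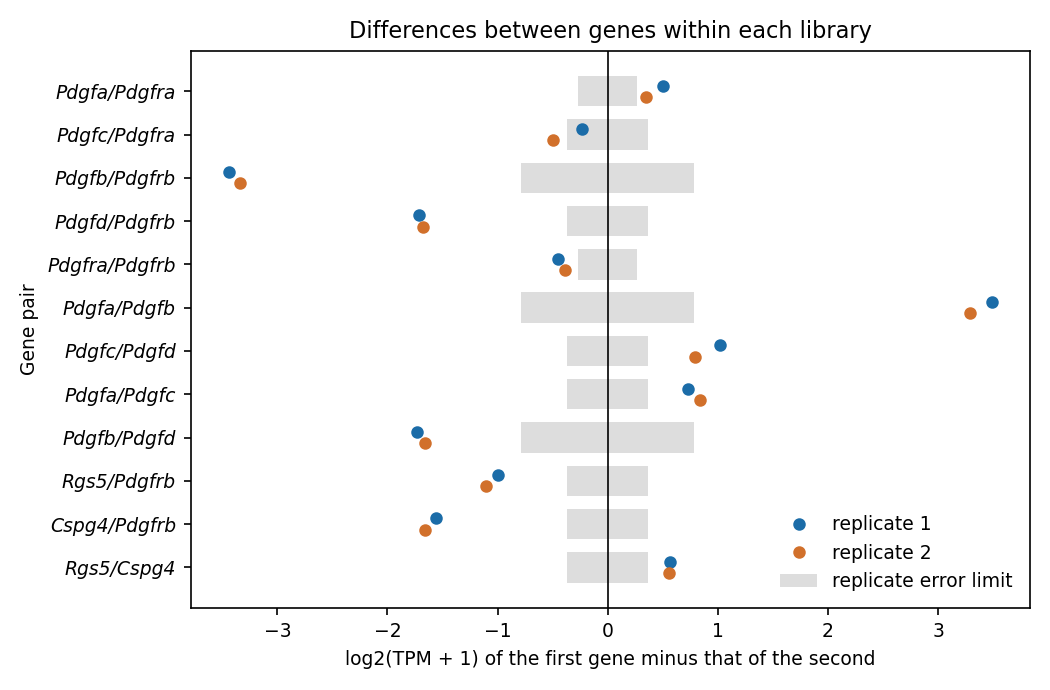
Difference in log2(TPM + 1) within each library for the 12 pairs chosen by role, first gene minus second (blue, replicate 1; orange, replicate 2), with the replicate error limit as a grey bar around 0. Both points lie outside the bar for 11 pairs, and for Pdgfc/Pdgfra the replicate 1 point lies inside it.

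In the deposited apportioning, Pdgfc was led by a transcript that does not encode the full protein. Pdgfc-202, which holds the extra exon shown above and is annotated as a target of nonsense-mediated decay, the pathway that degrades transcripts with an early stop, made up 78.12% of the gene in replicate 1 and 81.14% in replicate 2. The coding transcript Pdgfc-201 made up 20.33% and 18.09%. Their levels were 19.82 and 19.90 TPM for Pdgfc-202 against 5.16 and 4.44 TPM for Pdgfc-201, and the quantifier's intervals of these transcripts did not overlap in either library. With Pdgfc-203, a further decay transcript, the transcripts with the extra exon held 80.8 ± 1.58% of Pdgfc. A decay transcript led in both libraries in 1.37% of the 13387 detected protein-coding genes and in 7.13% of the 2565 that have such a transcript in the tables. Pdgfc-201 and Pdgfc-202 also differ at their 5′ starts by 756 nt, so the estimate rests on reads over both differences. It is the authors' apportioning, not a count of reads across the exon. Pdgfc-201 was the 1 listed transcript without the exon. A coding transcript with the shorter 5′ end thus had no entry of its own, and its share was not estimated. Counted over protein-coding transcripts alone, Pdgfc measured 4.80 ± 0.509 TPM and moved from the fourth to the seventh place in the order. It then lay 1.26 log2 units below Pdgfd and 2.53 below Pdgfra, both beyond the limit.

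Pdgfa was mostly the short form. The deposited table lists 7 Pdgfa transcripts, led by Pdgfa-202 with 60.93% and 53.45% of the gene. Pdgfa-204, which also has 196 codons and starts at another first exon, held 16.44% and 23.84%, and Pdgfa-207, a processed transcript with no coding sequence, held 9.01% and 11.15%. The quantifier's interval for Pdgfa-207 ran from 0.0009 to 7.08 TPM in replicate 1 and from 0.31 to 8.73 TPM in replicate 2. The Pdgfa level over protein-coding transcripts alone, which leaves Pdgfa-207 out, is uncertain to that extent. The long form with exon 6, Pdgfa-201, held 8.82% and 8.72%. Among the coding transcripts the long form made up 9.96 ± 0.0264% of Pdgfa TPM. Its level was 3.78 TPM in replicate 1 and 3.90 TPM in replicate 2, with wide intervals of 2.20 to 5.72 and 2.05 to 6.14 TPM. These intervals are far wider than the spread between the pools. Pdgfa-201 and Pdgfa-202 differ at their 3′ ends by 502 nt as well as in exon 6.

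Pdgfd was led by Pdgfd-201, without the 18-nt stretch, at 82.54% and 75.03%. Pdgfd-202, with the 6 added codons, held 17.46% and 24.97%, or 2.09 and 3.43 TPM. In GENCODE M21 these transcripts also differ at their 3′ ends by 1326 nt. Pdgfd-201 has 3131 nt there and 3052 nt as quantified, so the difference behind the estimate may be another. As a share of expected counts in place of TPM, Pdgfd-202 held 13.4%, against a mean of 21.2% by TPM. Pdgfra was led by Pdgfra-201 (89.56% and 92.95%), with the rest in Pdgfra-202, which also has 1089 codons and starts at another first exon. GENCODE M21 lists 9 Pdgfra transcripts, of which the tables hold these 2. Pdgfrb-201 held 100% of Pdgfrb in both libraries, and the leading Rgs5 transcript held 97.69% and 96.86%. Pdgfb and Cspg4 each have 1 transcript in the tables. The leading transcript was the same in both libraries for the 6 genes with at least 2 transcripts in the tables, as it was for 91.6% of detected genes with at least 2.

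**Figure D4:**
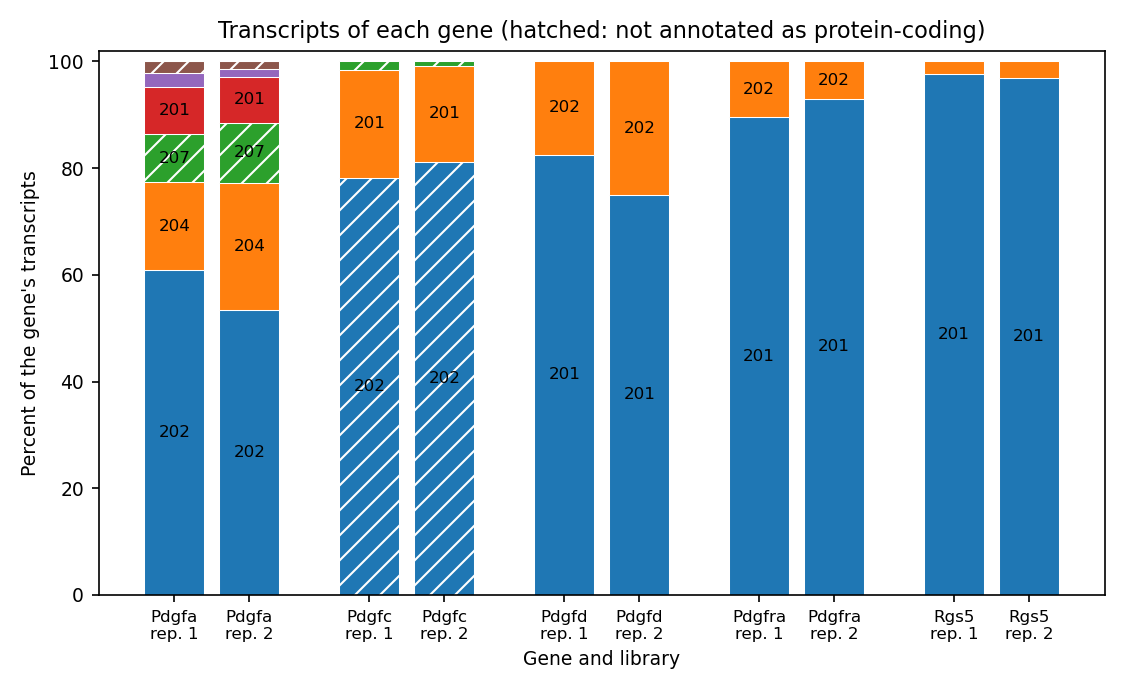
Share of each transcript within its gene, in percent of the gene's TPM, for the 5 genes with at least 2 transcripts above 0, as stacked bars per library; numbers within bars are transcript names and hatching marks transcripts not annotated as protein-coding. Pdgfc-202, hatched, fills 78.12% and 81.14% of the Pdgfc bars, while coding transcripts lead the other genes.

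Between the pools, 0 of 8 genes differed by more than 1.5-fold in TPM, against 5.16% of all 15108 detected genes. The largest ratio, replicate 2 over replicate 1, was that of Pdgfb at 1.26, and the lowest that of Pdgfc at 0.967. Each of the 8 ratios lay within the replicate limit at its level. That limit is a high percentile of the ratios of detected genes between these same pools, so most genes lie within it by construction. Lying within it therefore does not set the 8 genes apart from others. The quantifier's intervals did not overlap between libraries for Pdgfra (28.5 to 30.1 against 33.4 to 35.2 TPM) and Pdgfrb (39.4 to 41.6 against 44.1 to 46.3 TPM). The same held for 17.0% of all detected genes and for 20.4% of those at 30 to 100 TPM. In TPM, 7 of 8 genes were higher in replicate 2, as were 54.3% of all detected genes, and with TMM or DESeq2 scaling 6 of 8 were, Pdgfa then being lower as well as Pdgfc. Scaled to the spike-in RNAs, 0 of 8 were higher in replicate 2, with ratios of 0.746 to 0.978; that scaling moved the median ratio of all detected genes from 1.01 to 0.787.

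Genes of the cells that could hold the set differed unequally between the pools. Their ratios are in TPM, without the spike-in shift given above. Of 14 pericyte and mural markers, 13 were detected, and their summed level was 237.41 TPM in replicate 1 and 269.17 TPM in replicate 2, a ratio of 1.13. The highest were Ndufa4l2 (38.27 and 53.25 TPM), Anpep (42.59 and 47.91 TPM) and Des (44.27 and 43.29 TPM), and Higd1b stayed below 1 TPM (0.58 and 0.39). Anpep and Des are also known in other cells, so the sum of this list is not a measure of pericytes alone. Vtn was 1.77-fold higher in replicate 2 and Steap4 was lower there, at 0.636-fold. Markers listed for vascular smooth muscle differed far more. Genes of that list, Actg2 among them, are also known in other smooth muscle, so they do not single out vessel walls. Their sum was 340.46 against 733.14 TPM, and 6 of the 7 detected were over 1.5-fold higher in replicate 2, against 2.97% of all detected genes. These were Acta2 (193.24 and 410.1 TPM), Actg2 (20.62 and 105.82), Tagln (37.87 and 68.34), Myh11 (5.54 and 24.05), Cnn1 (5.60 and 23.15) and Myocd (3.62 and 9.91), while Smtn (73.18 and 88.99) lay within 1.5-fold. In the same libraries Pdgfrb, Rgs5 and Cspg4 had ratios of 1.11, 1.03 and 1.04.

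Among mesangial and renin cell markers 8 of 8 were detected, with summed levels of 644.44 and 850.03 TPM. The highest were Ren1 (205.59 and 269.27), Sfrp2 (143.59 and 182.63) and Postn (97.84 and 125.21). Gata3 (88.38 and 79.76) is also among the kidney epithelium markers given below. The sum of this list is therefore not a measure of mesangial and renin cells alone. Akr1b7, the 1 gene of the list past 1.5-fold, was 2.56-fold higher in replicate 2, where the adrenal markers given below were higher too. Whether adrenal tissue adds to its level was not tested. Stromal and fibroblast markers, which include known sites of Pdgfra, were detected in 15 of 15, with a ratio of sums of 1.15 and 3 genes over 1.5-fold higher in replicate 2: Gdf10 (5.04 and 10.13 TPM), Dpt (3.17 and 4.85) and Tbx18 (1.57 and 2.76). The list was led by Col1a1 (902.35 and 908.06 TPM), Col3a1 (726.86 and 1008.03) and Penk (287.67 and 297.2). Endothelial markers, of the cells known to make PDGF-B, were detected in 10 of 10 with a ratio of 1.04, led by Egfl7 (179.83 and 177.79), Plvap (109.73 and 114.69) and Cldn5 (76.48 and 80.51). The platelet list, a further known source of PDGF ligands, had 5 of 6 detected and was led by Pf4 (29.35 and 29.82 TPM), Itga2b (6.75 and 8.91) and Ppbp (1.46 and 2.47). Ppbp and Gp1bb (1.25 and 1.88 TPM, a ratio of 1.504) were over 1.5-fold higher in replicate 2, against 2.97% of all detected genes. Their expected counts were low, at 35 and 64 for Ppbp and 47.3 and 71.95 for Gp1bb. In the oligodendrocyte precursor and glia list, the other cells known for Pdgfra and Cspg4, 2 of 7 were detected. Sox10 was at 0.33 and 0.78 TPM, Olig1 at 0.10 and 0.07, Olig2 was at 0 in both, S100b and Gfap were below 1 TPM, and Mbp was highest (6.38 and 6.98).

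The labelled tissue was checked with 13 markers of kidney epithelium and nephron progenitors, all detected and none past 1.5-fold, against 5.16% of all detected genes. They were led by Cdh16, Cited1 and Wt1 at 103.18 to 135.02 TPM. Podocyte markers, led by Podxl at 50.93 and 52.9 TPM, and macrophage markers, led by Lyz2, C1qb and C1qa at 16.27 to 65.77 TPM, were detected in 6 of 6 each, with ratios of sums of 1.08. Markers of neighbouring organs were present and unequal between the pools. Of all detected genes, 2.97% were over 1.5-fold higher in replicate 2, and 5.16% were past 1.5-fold in either direction. The 8 adrenal markers were all over 1.5-fold higher in replicate 2, with a ratio of sums of 4.09. They were led by Cyp11a1, Cyp21a1 and Hsd3b1, at 9.06 to 12.93 TPM in replicate 1 and 30.71 to 37.84 TPM in replicate 2. The liver list had a ratio of 1.94, and Afp, Trf, Apoa1 and Alb were over 1.5-fold higher in replicate 2. Skeletal muscle markers had a ratio of 0.554 with 5 of 7 over 1.5-fold lower in replicate 2: Acta1, Mylpf, Tnnt3, Ckm and Myog. Cartilage markers had 3 of 6 detected (Sox9, Col2a1 and Col9a1) and a ratio of 0.896, with Matn1, Comp and Acan below 1 TPM and Col9a1 over 1.5-fold higher in replicate 2. Sox9 gave 31.11 and 29.3 TPM of that list's sums of 62.11 and 55.63 TPM. The tissue of origin of the Sox9 RNA was not tested, so this list does not show cartilage in the pools. Whether any of these tissues adds to the levels of the PDGF set was not tested.

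**Figure D5:**
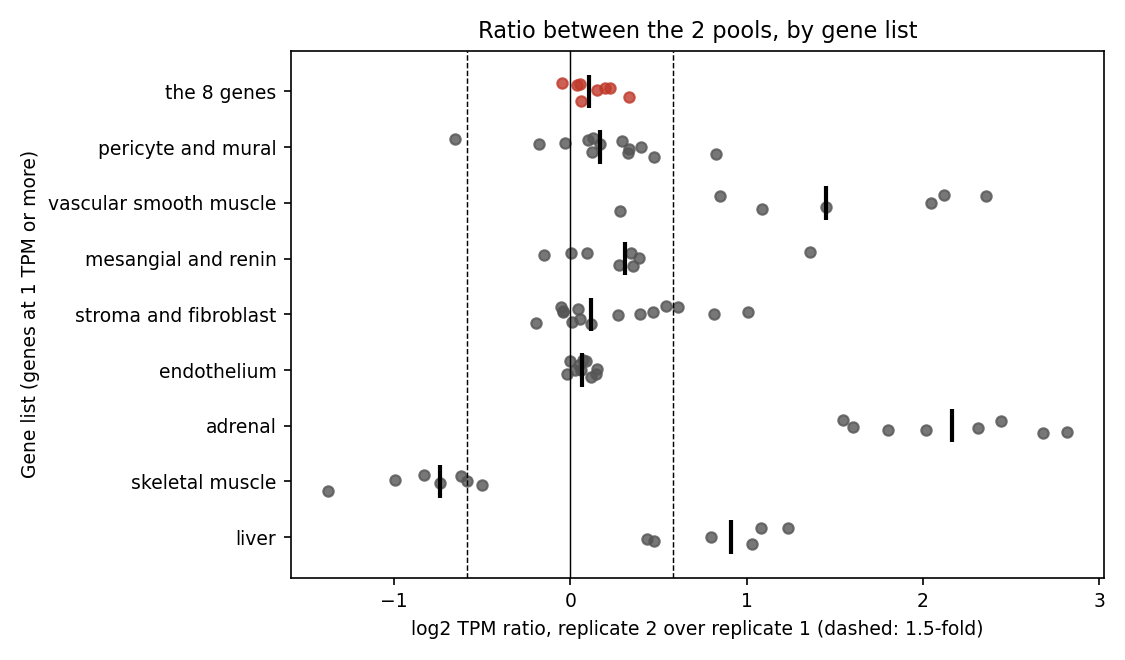
Log2 TPM ratio of replicate 2 over replicate 1 for the 8 PDGF and pericyte genes (red) and the detected genes of 8 marker lists (grey), with the median as a black bar and dashed lines at 1.5-fold. The 8 genes all lie between the dashed lines, as do the endothelial markers, while 6 of 7 smooth muscle and 8 of 8 adrenal markers lie to the right of them.

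The rest of the pathway was present. Of 8 genes that process PDGF ligands or restrain that step, 7 were detected, with medians over the list of 13.5 and 14.5 TPM, where the detected protein-coding genes had medians of 19.4 and 19.5 TPM. Plat, the tissue plasminogen activator known to cut PDGF-C, measured 110.14 and 103.37 TPM, and Serpine2, an inhibitor of serine proteases, 149.03 and 112.55 TPM. St14, encoding matriptase, which can cut PDGF-D, measured 25.82 and 25.92 TPM. Receptor partners were detected in 8 of 8, led by Sparc (1222.69 and 1375.86 TPM), whose protein binds PDGF in the matrix, then Itgav (85.94 and 81.87) and Gas1 (77.27 and 82.65).

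Receptor signalling genes, the adaptors and kinases downstream, were detected in 26 of 26 with medians of 43.4 and 43.1 TPM. Of these, 0 passed 1.5-fold, against 5.16% of all detected genes. The adaptors Crk (107.51 and 95.86 TPM) and Shc1 (79.43 and 85.26) were among the highest. Genes that shut the receptors off were detected in 11 of 11, with medians of 14.4 and 16.7 TPM. The MAP kinase phosphatase Dusp6 (68.62 and 69.85 TPM) and the tyrosine phosphatases Ptpn2 (69.33 and 60.12) and Ptpn1 (56.78 and 44.91) led them. Of 11 other RGS genes 7 were detected, led by Rgs19 (46.30 and 49.88 TPM), Rgs3 (43.71 and 45.69) and Rgs2 (26.08 and 33.46). Rgs1, Rgs14 and Rgs18 were below 1 TPM in both libraries, and Rgs4 was 2.55-fold higher in replicate 2. Related receptor kinases and their ligands were detected in 12 of 13, led by Vegfb (32.36 and 33.21 TPM), Kdr (30.84 and 33.53) and Kitl (21.28 and 19.51), with Flt3 below 1 TPM (0.15 and 0.04).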

How the data were processed

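Each library had 1 table per gene and 1 per transcript. Reads were placed on mm10 with GENCODE M4, per the text files deposited beside the tables; no source used here names the aligner, the quantifier or their versions, or says whether strand was used. Without strand, reads on any bases that Pdgfa shares with its antisense gene 6330403L08Rik (0.71 and 0.65 TPM) cannot be told apart. The spans of these genes overlap, and overlap of their exons was not computed. Antisense genes also overlap the spans of Pdgfb, Pdgfc and Pdgfra. The deposited expected counts are estimated reads, with shared reads apportioned by the authors' quantifier. The deposited TPM and FPKM values are scaled for length and depth, spike-ins included. Transcript shares are the percent column the authors deposited. The deposited TPM interval bounds have no stated level; they surround a posterior mean, so the TPM can sit at or above the upper bound.

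Total expected counts were 36244861 (replicate 1) and 39415002 (replicate 2); exact intervals of count ratios cover counting error only. The libraries differed beyond sampling noise (chi-square per degree of freedom 11.4 over 19818 genes), so they were kept as 2 replicates. The spike-in counts were 943779 and 1310701. Names, places and sequences came from GENCODE M21, which matched 42462 genes. Of the 20 transcripts of the set, 15 had the same length there. Figf and Flt3l were not matched, and 0 columns of other samples were present.

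The members and the 20 gene lists were chosen with earlier results of these data known. Named are the 8 genes, the 3 highest genes of each list, list genes below 1 TPM, mural, smooth muscle and mesangial genes past 1.5-fold, and transcripts at 10% or more in either library; Rgs4, further list genes past 1.5-fold and the transcripts Pdgfc-203 and Pdgfa-201 were added after their values were seen. Some list genes that fall under this rule are not reported here. Levels were compared on log2(TPM + 1) with limits per level (bins from 1, 3, 10, 30 and 100 TPM mean). The fold rule was tried on simulated counts with the same spread setting for all genes, and the limit rule on invented pairs of values. Neither trial modelled pools with unequal tissue. Scaling used rounded expected counts with edgeR 4.0.16 (TMM) and DESeq2 1.42.0 size factors in R 4.3.3; tables were read with Python 3.11.15. Alternatives were other detection levels, a pseudocount of 0.1, other limits, folds and scalings, posterior means, coding transcripts alone and each library alone.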

Additional observations from a re-analysis of the deposited data

How the results depend on the processing

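No paired analysis was possible because the labels give only 1 group. Of the 7 neighbouring pairs, 3 were separated, against 1 with 1 limit over all genes, 1 with the 99th percentile as the limit and 6 with CPM, which has no length correction. The chosen pairs fell from 11 to 6 with the 99th percentile. At a fold of 1.2, 1 of the 8 genes (Pdgfb) differed between pools, where 18.8% of all detected genes did. With CPM, Pdgfa/Pdgfra turned to -1.58, Rgs5/Cspg4 to -0.43 and Pdgfa/Pdgfc to -0.0426 log2 units, as CPM leaves in transcript length. With coding transcripts only, chosen after seeing the data, Pdgfc/Pdgfd turned to -1.26 and Pdgfa/Pdgfra (0.24) was no longer separated. The share of all genes past the fold was 5.16%, against 20.5% with no filter on low values and 1.76% at a fold of 2; 0 of the 8 genes passed under either. Other alternatives kept the counts of pairs within 1.5 times. As a share of expected counts, the extra Pdgfc exon held 76.9% and Pdgfa exon 6 8.38%. Depth limits Pdgfb most: its count ratio per depth was 1.25 with an exact Clopper-Pearson interval of 1.04 to 1.51. A spread over 2 pools has 1 degree of freedom, so each SD is itself uncertain.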
